A study of Mus musculus with 222 samples.

Results

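Etv1, Etv4 and Etv5 are the 3 mouse genes of the PEA3 group of ETS transcription factors, and their expression was followed here across MMTV-ErbB2 mammary tumors and normal mammary glands. They are 3 of the 19938 genes that had a probe set with a single symbol on the Affymetrix mouse gene 1.0 ST array, and where a gene had several, the one whose mean across the 222 arrays was highest was read. The 214 tumor arrays came from female mice, 38 of which gave at least 2 arrays by their names, and these mice carried the ErbB2 proto-oncogene under the mouse mammary tumor virus promoter, which drives expression mainly in mammary epithelium. FVB tumors made up 26 of these arrays, and 28 were of F1 mice (C57BL/6 crossed with FVB/N). The other 160 were of F1BX mice, made by crossing F1 animals again with FVB/N, so that every mouse has its own mixture of both genomes. An F1 tumor (051T1) and an FVB tumor (063T1) are named in the way F1BX tumors are. They were grouped by their labels, and what this does to the comparisons of backgrounds was not tested. Among the 8 glands, the transgene was carried by 3 of FVB and 2 of F1 background, and 3 F1 glands were wild type. All groups except the F1 wild type glands carry the transgene, and signal of the transgene was not separated from that of mouse Erbb2. No age is stated for the mice that gave glands, nor whether the glands of a group came from separate mice, so the p-values of glands measure only the spread between these samples. All values are log2 expression after robust multiarray average (RMA) normalization.

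ETS factors bind DNA through a conserved domain that recognizes a GGAA core, and the PEA3 group shares an acidic activation domain through which the ERK kinases raise its activity. The genes are expressed in epithelial buds during development, including the mammary bud, and are induced by fibroblast growth factor and ERBB receptors through RAS and ERK. Capicua (Cic) represses their transcription until ERK relieves it, and the ubiquitin ligase formed by COP1 and DET1 with DDB1 and CUL4A degrades the proteins. Etv4, which gave the group its name as PEA3, has long been known to be raised in Neu-induced mouse mammary tumors.

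The arrays fell into 2 sets by the spread of their values, and the sets were kept apart. The interquartile range was 1.86 to 2.62 in 34 arrays (the narrow set, with all 8 glands, 20 F1BX tumors and 6 F1 tumors) and 3.04 to 3.35 in 188 (the wide set, which held all 26 FVB tumors, 22 of F1 and 140 of F1BX mice). No batch is named in the labels or methods. Array values have no counting depth, and their number limits the precision.

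Etv4 had 1 probe set (10391490), whereas Etv1 and Etv5 had a second one each. The ID numbers of the array largely follow the chromosomes: 94.3% of the probe sets with a known chromosome were followed by one on the same chromosome. The Etv1 probe set used here (10406934) lay among IDs of chromosome 13, with 0 of its 10 nearest neighbors on chromosome 12, where Etv1 is. Its second probe set (10395457) had all 10 neighbors on chromosome 12. In the same way, the Etv5 probe set used here (10363901) had 10 of 10 neighbors on chromosome 10, and the second one (10438626) had all 10 on chromosome 16, the chromosome of Etv5. The annotation gives both probe sets of a gene the transcripts of that gene, and where their probes lie was not tested. Over tumors, the 2 probe sets of Etv1 correlated with r = 0.92 in the wide set (188 arrays) and 0.99 in the narrow set (26 arrays), and those of Etv5 with r = 0.95 and 0.98. Values of the second probe set are given where a call or a count differed in a main comparison, and for other fits only in part.

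To show the sequence through which these genes could be regulated, promoter windows were searched for the letters that ETS factors, Capicua, AP-1 and CREB bind. RefSeq on GRCm38.p6 gave windows for 2 of the 3 genes, Etv1 and Etv5, with 2 windows of 300 bases each, and those in which a motif was found are shown, 5′ to 3′, with the matches in capitals. The Etv1 window lies at chr12:38779832-38780131 on the plus strand and the Etv5 window at chr16:22438319-22438618 on the minus strand.
Etv1: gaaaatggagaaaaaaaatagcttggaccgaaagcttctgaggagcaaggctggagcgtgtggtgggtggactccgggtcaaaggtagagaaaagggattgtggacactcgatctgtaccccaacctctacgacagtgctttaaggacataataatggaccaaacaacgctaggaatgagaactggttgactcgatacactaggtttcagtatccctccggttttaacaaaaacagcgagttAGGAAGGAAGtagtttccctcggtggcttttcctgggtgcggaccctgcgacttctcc
Etv5: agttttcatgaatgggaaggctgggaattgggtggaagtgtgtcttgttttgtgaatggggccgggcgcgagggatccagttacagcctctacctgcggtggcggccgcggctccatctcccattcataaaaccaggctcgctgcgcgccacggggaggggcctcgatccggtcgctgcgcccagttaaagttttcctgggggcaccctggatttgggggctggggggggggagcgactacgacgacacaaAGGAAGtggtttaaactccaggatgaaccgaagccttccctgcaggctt
The motifs searched on both strands were AGGAAG and CGGAAG for ETS factors, TGAATGAA and TGAATGGA for Capicua, TGANTCA for AP-1 and TGACGTCA for CREB. Only AGGAAG was found, with 2 overlapping matches in the Etv1 window and 1 in the Etv5 window. It was present in 35.4% of 32851 promoter windows of the same length, so that its presence is common. The other motifs occurred in 16.9% (CGGAAG), 1.30% (TGAATGAA), 1.21% (TGAATGGA), 7.81% (TGANTCA) and 1.79% (TGACGTCA) of the windows. The second Etv1 window and the first Etv5 window held none of the 6 motifs.

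Etv1 was low in glands and high in nearly every tumor. In the glands it was 7.61, 6.51 and 7.07 in FVB MMTV-ErbB2, 8.69 and 8.51 in F1 MMTV-ErbB2 and 6.55, 6.89 and 7.05 in F1 wild type. In the wide-set tumors the lowest, median and highest levels were 11.28, 11.66 and 12.02 in FVB, 10.53, 11.63 and 11.93 in F1 and 10.33, 11.64 and 12.16 in F1BX mice. All 188 wide-set tumors and 25 of 26 narrow-set tumors lay above every gland. The exception was the F1 tumor F1_26T1, at 6.51. By the second Etv1 probe set 24 of 26 narrow-set tumors lay above every gland, since 171T2 (8.63) was also below the highest gland (8.77) there. How many of all probe sets separated tumors and glands in this way was not counted, here or for Etv5 and Etv4.

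Etv5 showed the same separation. It was 6.90, 7.04 and 7.76 in FVB MMTV-ErbB2 glands, 7.14 and 7.44 in F1 MMTV-ErbB2 glands and 7.06, 7.05 and 7.27 in F1 wild type glands. The lowest, median and highest levels of wide-set tumors were 10.96, 11.61 and 11.998 in FVB, 10.51, 11.34 and 11.82 in F1 and 9.41, 11.45 and 11.97 in F1BX mice. Again all 188 wide-set and 25 of 26 narrow-set tumors were above all glands, with F1_26T1 (6.91) among the glands.

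Etv4, the founding member of the group, differed less. It was 6.66, 6.69 and 7.82 in FVB MMTV-ErbB2 glands, 6.74 and 7.07 in F1 MMTV-ErbB2 glands and 7.31, 6.70 and 7.01 in F1 wild type glands. Wide-set tumors ranged from 7.76 through a median of 8.34 to 9.16 in FVB, from 7.67 through 8.44 to 9.42 in F1 and from 7.41 through 8.39 to 9.28 in F1BX mice. Of the wide-set tumors, 175 of 188 exceeded every gland, but only 6 of 26 narrow-set tumors did. The highest gland, FVB MMTV-ErbB2 replicate 3 at 7.82, set this limit, and the other glands were at or below 7.31. Its array had the lowest interquartile range (1.86) and the highest median (7.40) of all arrays. Median Etv4 of the narrow-set tumors was 7.60, above the other glands.

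**Figure D1:**
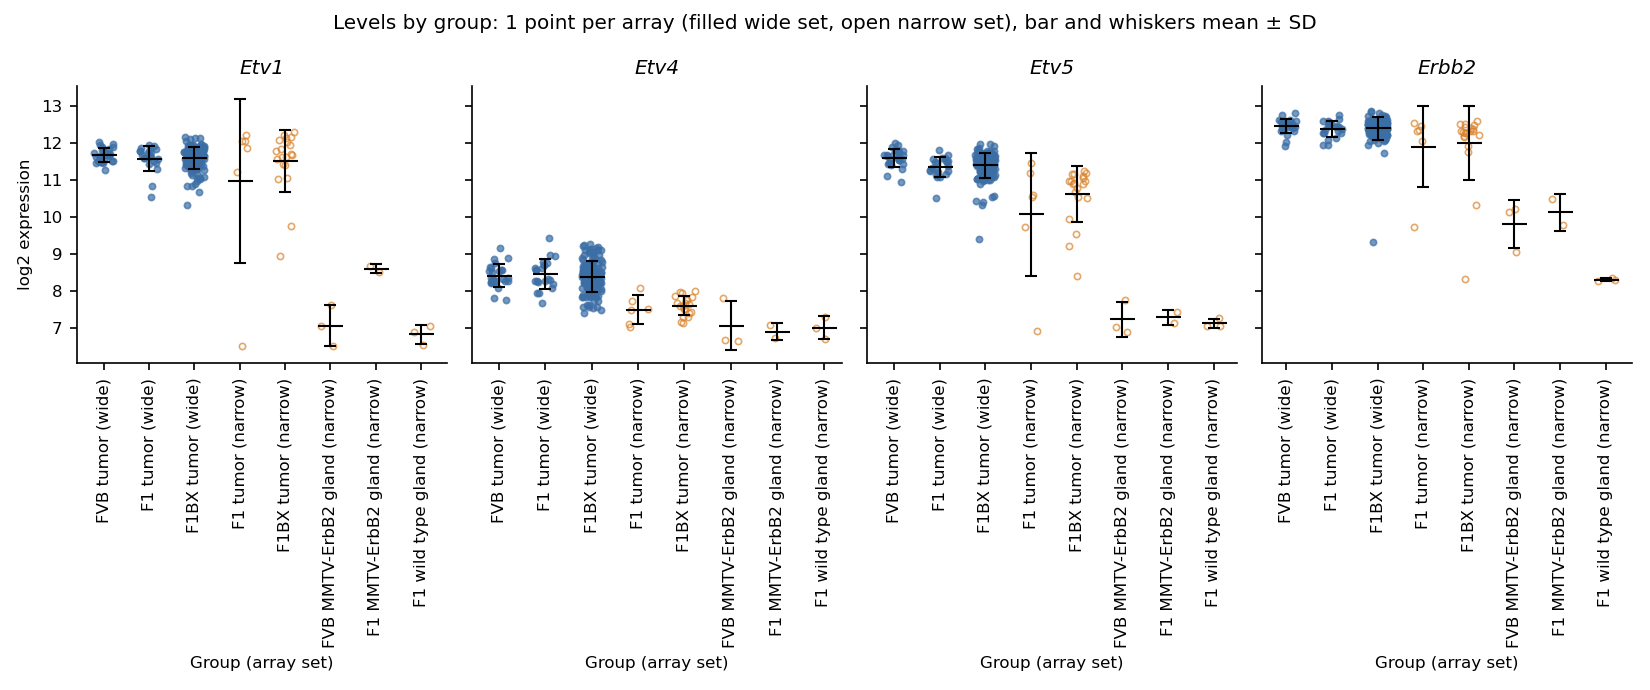
Log2 expression (y axis) of Etv1, Etv4, Etv5 and Erbb2 by group and array set (x axis), 1 point per array, filled for the wide set and open for the narrow set, with the mean and SD as bar and whiskers. Etv1 and Etv5 of the tumors lie above the glands except in F1_26T1 (6.51 and 6.91), whereas Etv4 of the narrow-set tumors (7.02 to 8.08) overlaps the glands (6.66 to 7.82). The gland at 7.82 is FVB MMTV-ErbB2 replicate 3, and the others are at or below 7.31.

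Between all tumors and all glands, the log2 fold change was 4.21 for Etv1 (standard error 0.19, adjusted p = 1.21e-56 from limma), which is 18.5-fold. It was 4.08 for Etv5 (standard error 0.20, adjusted p = 8.72e-52 from limma), or 16.9-fold, and 1.30 for Etv4 (standard error 0.17, adjusted p = 5.34e-12 from limma), or 2.46-fold. A gene was called where the fold was 2 or more and the FDR did not exceed 0.005. All 3 genes were called higher, as were 17.5% of the 35556 probe sets (28.2% were called in either direction). Ranked by log2 fold change, Etv1 was 9th and Etv5 14th of all probe sets, and Etv4 was 4164th. The second probe sets gave 3.86 for Etv1 and 4.25 for Etv5. Etv1 varied more among glands (SD 0.84, n = 8) than among tumors (SD 0.51, n = 214), and the fit used 1 pooled spread for both.

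Because all glands were in the narrow set, the comparison was repeated among the 26 tumors and 8 glands of that set. Etv1 rose by 4.03 (standard error 0.45, adjusted p = 2.47e-09 from limma) and Etv5 by 3.27 (standard error 0.35, adjusted p = 9.70e-10 from limma) on the log2 scale. Etv4 was 0.58 higher (standard error 0.13, adjusted p = 0.000263 from limma), which passed the FDR but is 1.49-fold and thus below the fold required. So 2 of the 3 genes were called, against 12.1% of all probe sets in either direction and 7.37% as higher. Without F1_26T1 the narrow-set values were 4.22, 3.42 and 0.60, and the calls were the same.

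**Figure D2:**
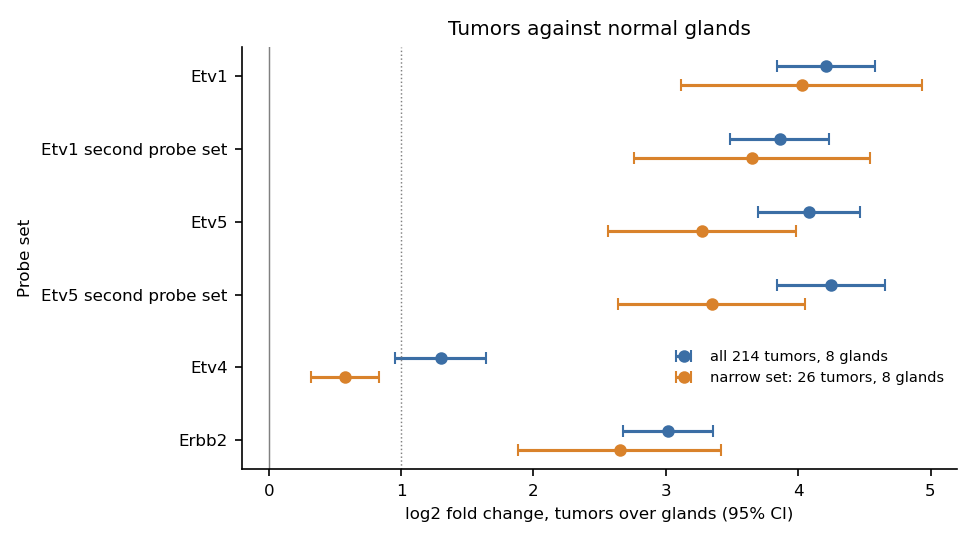
Log2 fold change of tumors over glands (x axis) with its 95% confidence interval from limma for each probe set (y axis), for all arrays and for the narrow set alone. The dotted line marks a fold of 2, and Etv4 lies at 1.30 with all arrays and at 0.58 in the narrow set.

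The set of the array moved with the levels of Etv4 and Etv5 more than with that of Etv1. Among F1BX tumors, the narrow-set mean was lower than the wide-set mean by 0.78 for Etv4 (7.61 and 8.39) and by 0.79 for Etv5 (10.61 and 11.39), but by only 0.09 for Etv1 (11.51 and 11.60). Erbb2 was 0.40 lower (11.99 and 12.39). Among F1 tumors, with F1_26T1 in the narrow set, the narrow-set minus wide-set difference was -0.97 for Etv4, -1.28 for Etv5 and -0.60 for Etv1. A pair of F1BX tumors was measured in both sets according to the names. In 035T1, Etv4 was 7.86 on the wide-set and 7.30 on the narrow-set array, Etv5 was 10.44 and 9.54, and Etv1 was 10.82 and 11.01. In 246T1, Etv4 was 8.46 and 7.78, Etv5 was 11.85 and 11.25, and Etv1 was 11.83 and 12.15. Thus in both tumors Etv4 and Etv5 were lower and Etv1 was higher on the narrow-set array.

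Markers of other cell types also differed between tumors and glands, and their part in the changes of the 3 genes was not tested. In bulk tissue, fewer cells of a type and less RNA per cell cannot be told apart. By the same rule, all 5 T cell and all 5 B cell genes measured were lower in tumors, as were 7 of 8 fibroblast genes, 7 of 8 genes of the basal and myoepithelial layer and 4 of 8 endothelial genes. In the narrow set alone, the T and B cell counts were the same. There 4 of 8 fibroblast, 6 of 8 basal and myoepithelial and 6 of 8 endothelial genes were lower. Of all 35556 probe sets, 3794 were called lower with all arrays and 1692 in the narrow set. The mean level of the T cell list was 7.42 to 9.10 in glands, 6.35 to 6.71 in narrow-set tumors and 5.64 to 6.52 in wide-set tumors. Of the 8 luminal epithelial genes, 2 were higher, 2 lower and 4 not called, with a median log2 fold change of 0.31. In the narrow set these counts were the same and the median was -0.05. The mean of this list was 9.98 to 12.12 in glands and 8.06 to 11.76 in narrow-set tumors, so the groups overlapped. Adipocyte genes were called lower for 1 of 7, macrophage genes higher for 1 and lower for 1 of 8, and Schwann cell genes higher for 1 and lower for 2 of 4.

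Among tumors, the question was whether the 3 genes follow Erbb2, the receptor that the transgene encodes. Of the 214 tumor arrays, 4 had Erbb2 under 11, within the range of the glands (8.26 to 10.48), and they are described by their values alone. In F1_26T1 (Erbb2 9.72) Etv1, Etv4 and Etv5 were 6.51, 7.11 and 6.91, which placed them first, second and first from the bottom of the 26 narrow-set tumors. In 092T1 (Erbb2 8.32) Etv1 was 11.06, Etv4 7.68 and Etv5 8.40, so that Etv5 was second lowest while Etv4 was above the median of 7.60. In 076T1 (Erbb2 10.31) they were 9.76, 7.15 and 9.21, with both Etv1 and Etv5 at rank 3 from the bottom. In 168T1 (Erbb2 9.32), the only one in the wide set, Etv1 (10.33) and Etv5 (9.41) were the lowest of 188 tumors, whereas Etv4 (8.44) was above the median of 8.38. Etv5 was thus at or below 9.41 in all 4 tumors. Etv1 ranged from the level of a gland (6.51) to 11.06 in 092T1. The latter was rank 5 from the bottom of its set, within the range of tumors with higher Erbb2 and below the set median of 11.74.

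These 4 tumors differed from each other in cell type markers. The luminal list was lowest of its set in 092T1 (8.06) and 168T1 (8.33), and the macrophage list was high in both (10.52 and 9.95, against set medians of 8.54 and 8.93). In 092T1 the fibroblast list was the highest of its set (12.18). In F1_26T1 (11.76) and 076T1 (11.34), by contrast, the luminal list was the highest and second highest of the narrow set, and the basal and myoepithelial list was also the highest (8.88) and second highest (8.72). The luminal, basal and ERK output lists of F1_26T1 (11.76, 8.88 and 8.90) lay within the ranges of the glands (9.98 to 12.12, 8.05 to 10.5 and 8.81 to 9.60). Its B cell and T cell lists (6.25 and 6.45) lay below those of the glands (7.54 to 9.70 and 7.42 to 9.10), and its proliferation list (8.83) lay above (6.92 to 7.38). The part of these cells in its low Etv1 and Etv5 was not tested. A tumor with high Erbb2, 171T2 (12.20), also had low Etv1 (8.95 and 8.63 by its 2 probe sets), with Etv4 at 7.13 and Etv5 at 9.95.

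The slope on Erbb2, in log2 units of the gene per log2 unit of Erbb2 on the same array, was positive for Etv1 and Etv5 in the wide set. It was 0.39 for Etv1 (standard error 0.065, adjusted p = 4.51e-07 from limma), 0.55 for Etv5 (standard error 0.070, adjusted p = 3.04e-11 from limma) and -0.11 for Etv4 (standard error 0.10, adjusted p = 0.550 from limma). So 2 of the 3 genes had a positive slope that passed, against 7.82% of all probe sets (16.8% in either direction). Without 168T1 the slopes were 0.35 (adjusted p = 0.0119 from limma), 0.41 (adjusted p = 0.00632 from limma) and -0.25 (adjusted p = 0.316 from limma). In the narrow set the slopes were 0.72 for Etv1 (standard error 0.20, adjusted p = 0.0213 from limma), 0.86 for Etv5 (standard error 0.11, adjusted p = 7.22e-06 from limma) and 0.09 for Etv4 (standard error 0.056, adjusted p = 0.385 from limma). Again 2 of 3 passed, against 3.44% of all probe sets as positive and 8.36% in either direction.

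Without the 3 narrow-set tumors with low Erbb2, the slopes were 0.55 for Etv1 (95% confidence interval -0.86 to 1.96), 1.20 for Etv5 (0.31 to 2.09) and 0.65 for Etv4 (0.11 to 1.18), and none passed (adjusted p = 0.909, 0.741 and 0.741 from limma). In that limma fit 0 of all 35554 probe sets passed and 2333 had an unadjusted p under 0.05, so the lost calls are not particular to the 3 genes. Without F1_26T1 alone, the slope of Etv1 was 0.32 (adjusted p = 0.275 from limma) and that of Etv5 0.66 (adjusted p = 2.61e-05 from limma). A difference in slope between the sets was not called for any of the 3 (0.33 for Etv1, 0.20 for Etv4 and 0.31 for Etv5, lowest adjusted p = 0.0839 from limma), whereas 3.2% of all probe sets passed.

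Markers of cell types had slopes on Erbb2 as well. In the wide set, 5 of 8 luminal genes had a positive slope that passed, and 6 of 8 fibroblast and 6 of 8 macrophage genes had a negative one. Of all 35554 probe sets, 2781 passed with a positive slope and 3197 with a negative one. With the mean of the luminal list as a term of the fit, the slopes were larger, 0.55 for Etv1 and 0.61 for Etv5 in the wide set and 1.05 and 1.03 in the narrow set. These fits kept the tumors with low Erbb2, and the part of luminal cells in the slopes was not tested. Among the 12 described targets, 6 had a negative slope that passed in the wide set and 0 a positive one. All these counts kept 168T1. From the lowest of 188 tumors, it was at rank 1 for the luminal, 164 for the fibroblast, 181 for the macrophage and 187 for the target list.

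Correlations were taken over 1 array per mouse. Because the tumors with low Erbb2 lie apart from the rest, no Pearson coefficient with Erbb2 over all tumors is given. Over all mice, Spearman's rho with Erbb2 passed for Etv5 in the narrow set alone, where it was 0.55 (adjusted p = 0.0379 by permutation, lowest of the other relations 0.0539). Without the 2 tumors farthest from the median of Erbb2, Pearson's r passed for the same relation alone (0.70, adjusted p = 0.0226 by permutation), with 076T1 still included. Without all tumors with low Erbb2, in the wide set (130 mice) Pearson's r with Erbb2 was 0.12 for Etv1 (permutation p = 0.176), 0.17 for Etv5 (permutation p = 0.0473) and -0.18 for Etv4 (permutation p = 0.0370), and Spearman's rho was 0.11, 0.16 and -0.21. In the narrow set (21 mice) r was 0.07 for Etv1, 0.34 for Etv5 and 0.41 for Etv4, and rho was 0.05, 0.32 and 0.36. None of these 6 relations passed after Benjamini-Hochberg adjustment (lowest adjusted p = 0.123, 2-sided permutation test). The called slopes without 168T1 used every wide-set array, several from some mice, with the mouse as a block.

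**Figure D3:**
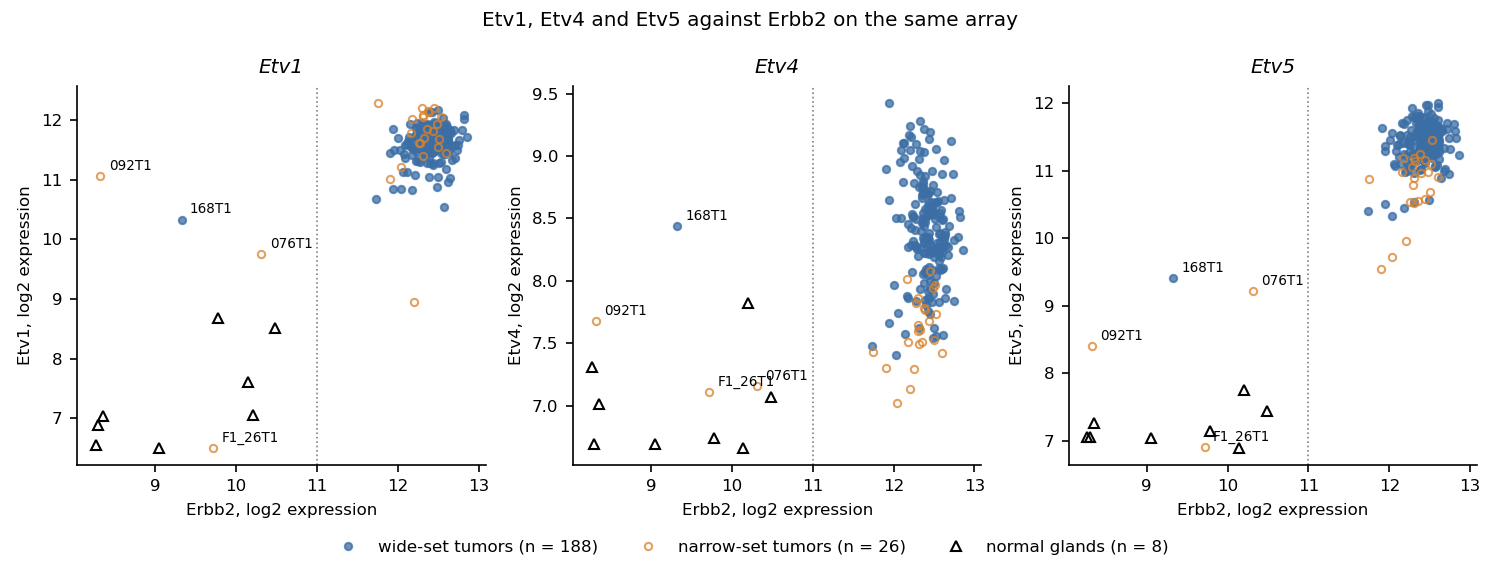
Log2 expression of Etv1, Etv4 and Etv5 (y axes) against Erbb2 on the same array (x axes), 1 point per array, for wide-set tumors, narrow-set tumors and glands; the dotted line marks an Erbb2 level of 11. The 4 named tumors to its left hold the lowest Etv5 of their sets (6.91 to 9.41), and the other tumors all have Erbb2 levels above 11.7.

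Etv1 and Etv5 varied together among tumors. Over 1 wide-set array per mouse (130 mice and the mouse of 168T1), r was 0.54 and rho 0.30 (adjusted p = 6e-05, from the smallest value that 100000 permutations can give, and 0.00342), and r was 0.44 without the 2 tumors farthest from the median of Etv1 (168T1 and F23T1). Over 24 narrow-set mice, r was 0.85 and rho 0.57 (adjusted p = 0.00099 and 0.0139 by permutation), and r was 0.71 without F1_26T1 and 171T2. Etv4 had a weaker relation with the other two. With Etv5 it correlated with r = 0.23 and rho = 0.18 in the wide set and r = 0.51 and rho = 0.43 in the narrow set (permutation, adjusted p = 0.0108 for both r). With Etv1 the wide-set r was 0.10 and rho -0.03, which did not pass (adjusted p = 0.264 by permutation). The narrow-set r of Etv4 and Etv1 was 0.58 (adjusted p = 0.00198 by permutation). These are 6 relations, adjusted together. Without the tumors with low Erbb2, r of Etv1 and Etv5 was 0.42 (rho 0.28) over 130 wide-set mice and 0.62 (rho 0.36) over 21 narrow-set mice. In the narrow set Etv4 then had r of 0.56 (rho 0.32) with Etv5 and 0.49 (rho 0.30) with Etv1. In the wide set these were 0.27 (rho 0.18) and 0.11 (rho -0.03).

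**Figure D4:**
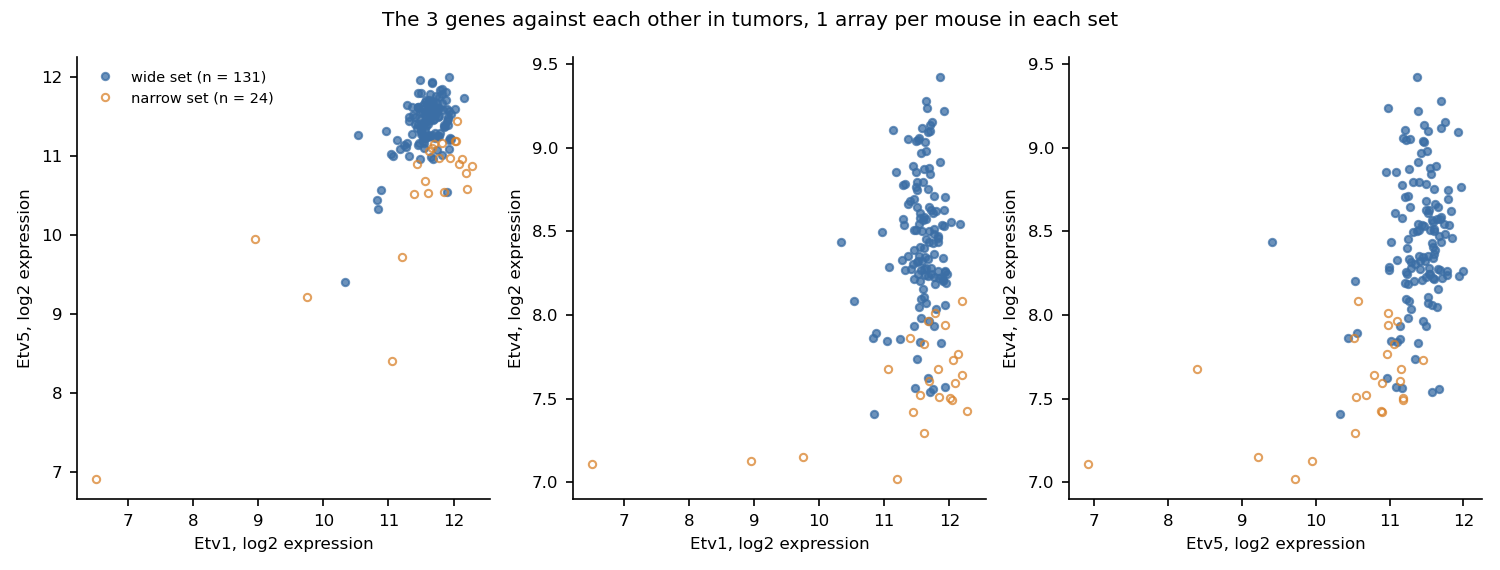
Log2 expression of each pair of Etv1, Etv4 and Etv5 in tumors, 1 point per mouse within each array set (24 mice in the narrow set), with 1 gene on each axis. Etv1 and Etv5 rise together (r = 0.54 in the wide set and 0.85 in the narrow set), and the wide-set cloud of Etv1 and Etv4 shows no slope (r = 0.10). Without the tumors with low Erbb2, r of Etv1 and Etv5 is 0.42 and 0.62.

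No difference between tumor backgrounds was called for the 3 genes by the probe sets used. In the wide set, mean Etv1 was 11.67 ± 0.19 (SD, n = 26) in FVB, 11.60 ± 0.29 (SD, n = 140) in F1BX and 11.57 ± 0.33 (SD, n = 22) in F1 tumors. Etv5 followed the same order, with 11.59 ± 0.24, 11.39 ± 0.34 and 11.35 ± 0.27, and Etv4 was 8.41 ± 0.31, 8.39 ± 0.42 and 8.46 ± 0.40. None of the 3 passed between F1 and FVB tumors, where 12.3% of all probe sets did. The difference was -0.09 for Etv1 (95% confidence interval -0.25 to 0.08), 0.06 for Etv4 (-0.17 to 0.30) and -0.23 for Etv5 (-0.42 to -0.05, adjusted p = 0.0831 from limma). None passed between F1BX and FVB tumors (6.74% of all probe sets did), where Etv5 was -0.19 (-0.33 to -0.06, adjusted p = 0.0686 from limma). Its second probe set gave -0.22 and passed (adjusted p = 0.0437 from limma). Between F1BX and F1 tumors 3.65% of probe sets passed but none of the 3 genes, whose differences were 0.02, -0.08 and 0.04. By these probe sets, neighbors in the orders of means did not pass for any of the 3 genes.

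Tumors of one mouse were not detectably more alike than tumors of different mice. Over 66 pairs of wide-set F1BX tumors from 30 mice, the mean absolute difference was 0.30 for Etv1, 0.47 for Etv4 and 0.31 for Etv5. Exchanging tumors between mice gave means of 0.31, 0.48 and 0.34 (one-sided permutation p = 0.417, 0.410 and 0.219, each 0.417 after adjustment over the 3 genes).

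Among glands, Etv1 had the largest differences between groups of the 3 genes, and its 2 probe sets gave different values. Mean Etv1 was 8.60 ± 0.12 (SD, n = 2) in F1 MMTV-ErbB2, 7.06 ± 0.55 (SD, n = 3) in FVB MMTV-ErbB2 and 6.83 ± 0.26 (SD, n = 3) in F1 wild type glands. Etv1 was compared between the F1 groups with (2 arrays) and without the transgene (3 arrays). The difference was 1.77 (95% confidence interval 0.995 to 2.54) and did not pass in a fit of the 8 glands (adjusted p = 0.432 from limma), where 0% of probe sets passed and 1726 had an unadjusted p under 0.05. It passed when the spread was estimated from all arrays (adjusted p = 0.0138 from limma) or when FVB MMTV-ErbB2 replicate 3 was left out (adjusted p = 0.0239 from limma). The second probe set was 8.13 and 7.59 in F1 MMTV-ErbB2 and 6.52, 6.74 and 7.30 in F1 wild type glands, with a difference of 1.01 (-0.15 to 2.16). It did not pass with the spread from all arrays either (adjusted p = 0.4445 from limma). Etv5 differed by 0.16 (-0.52 to 0.85) and Etv4 by -0.10 (-0.99 to 0.79). Erbb2 was 9.78 and 10.48 with the transgene and 8.26, 8.30 and 8.35 without it. Cell type lists also differed between these glands, with median log2 differences of -1.36 for luminal, -1.72 for basal and myoepithelial, 1.16 for T cell and 0.98 for B cell genes, none of them called, and their part in the Etv1 values was not tested.

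FVB MMTV-ErbB2 glands had Etv1 1.54 lower than F1 MMTV-ErbB2 glands (95% confidence interval -2.31 to -0.76), which did not pass among glands (adjusted p = 0.817 from limma), where again 0% of probe sets passed and 481 had an unadjusted p under 0.05. With all arrays it passed (adjusted p = 0.0214 from limma), but not by the second probe set (adjusted p = 0.928 from limma). By the second probe set the difference was -0.15 (-1.31 to 1.002), and there FVB MMTV-ErbB2 replicate 3 was the highest gland (8.77), whereas it was 7.07 by the first. The same gland was also the highest in Etv4 (7.82) and Etv5 (7.76). The increase of Etv1 from MMTV-ErbB2 glands to tumors was larger in FVB than in F1 by 1.76 (standard error 0.48, adjusted p = 0.00956 from limma), and 7.82% of all probe sets passed this test. By the second probe set it was 0.49 (standard error 0.49, adjusted p = 0.592 from limma). The call was lost without F1 MMTV-ErbB2 replicate 1 (1.68, adjusted p = 0.147 from limma), without its replicate 2 (1.85, adjusted p = 0.0541) and without FVB MMTV-ErbB2 replicate 3 (1.76, adjusted p = 0.698), and in the last fit 4 of all probe sets passed. For Etv5 the difference was 0.59 (adjusted p = 0.527 from limma) and for Etv4 0.01 (adjusted p = 0.991 from limma).

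Lists of genes around the 3 factors were compared between tumors and glands by the same rule, and their counts are to be read against the 17.5% of all probe sets called higher, the 28.2% called in either direction and the median log2 fold change of -0.11. Of 10 receptor tyrosine kinases that can act upstream, 2 rose, Kit by 2.54 and Erbb3 by 2.19 on the log2 scale, and Fgfr2 fell by 1.06, a share near that of all probe sets. Erbb3 is the kinase-poor partner of Erbb2, and Kit marks luminal progenitors. In the narrow set the same 3 genes were called (Kit 2.34, Erbb3 1.88 and Fgfr2 -1.10).

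Of 16 genes induced by ERK signaling, 4 were higher, 2 lower and 10 not called, with a median of 0.39. Dusp6, the ERK phosphatase, rose by 3.06 and Ccnd1, the cyclin of G1, by 2.93. Spry4 (1.46) and Spred1 (1.004), inhibitors of RAS signaling, were also called higher. Egr1 fell by 2.49 and Fosl1 fell by 2.35, and 8 of 9 immediate early genes were lower (median -2.42). In the narrow set only Dusp6 (2.46) and Ccnd1 (2.78) were called higher, 3 genes were called lower, and the median was -0.13 against -0.09 over all probe sets.

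Of the 8 repressors and degraders of PEA3 factors, 4 were higher and none lower, in both comparisons, with a median of 1.12 (0.75 in the narrow set). These were Atxn1 (1.998), a partner of Capicua, and Cul4a (1.74), Ddb1 (1.45) and Cul4b (1.31), parts of the ubiquitin ligase. Cic itself was at 0.03 and Cop1 at 0.51, and neither was called.

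Of 12 measured genes described as targets of PEA3 factors, 6 were lower in tumors, 0 higher and 6 not called, with a median of -1.01. The largest changes were those of Ptgs2, the inducible prostaglandin synthase (-5.21), Icam1, an adhesion molecule (-4.10), the stromelysin Mmp3 (-3.04) and the urokinase Plau (-2.78). Plaur (-2.25) and Mmp14 (-1.12) were the others. Met was 0.60 higher, Cxcr4 -0.29 and Mmp9 -0.32, none of them called. In the narrow set, 5 of the 12 targets were lower and 0 higher (median -0.99). With all arrays 7 of 8 fibroblast, 5 of 5 T cell and 5 of 5 B cell genes were lower, and of 8 macrophage genes 1 was higher and 1 lower (median 0.01). In the narrow set 4 of 8 fibroblast genes and 1 of 8 macrophage genes were lower, and the T and B cell counts were the same. Their part in the values of these targets was not tested.

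Of 22 other measured ETS genes, 2 were higher, 7 lower and 13 not called (median -0.30). Ehf (2.51) and Elf5 (2.28), ETS factors of epithelium, rose. Ets1 fell by 2.52 and Spib fell by 2.35, both known from lymphocytes. With Etv1, Etv4 and Etv5, 5 ETS genes were thus called higher in tumors, and Etv1 and Etv5 had the largest increases of them. All 9 measured proliferation genes were higher (median 2.36).

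**Figure D5:**
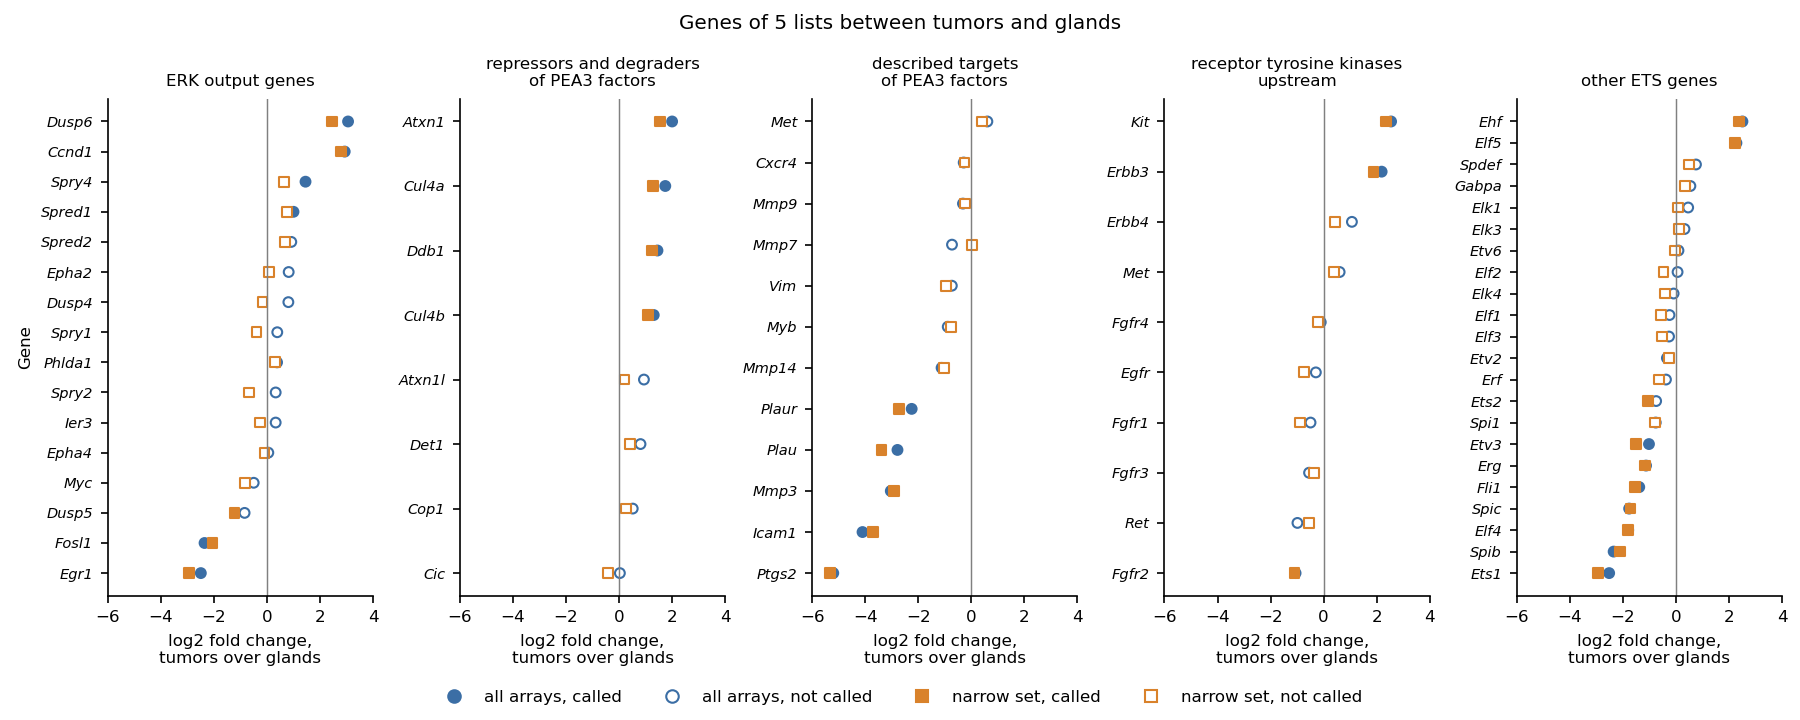
Log2 fold change of tumors over glands (x axes) for each measured gene (y axes) of 5 lists, as circles for all arrays and squares for the narrow set, filled where the gene was called. Dusp6 and Ccnd1 lead the ERK output genes, the called repressors and degraders all lie above 0, and the called targets all lie below 0.

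The genes whose pattern over the 188 wide-set tumors was most like each of the 3 were different sets, and r was from 0.69 to 0.74. For Etv1 they were Pof1b (0.74), Tspan13 (0.74), Otub2 (0.72), Slc39a9 (0.71) and Ncald (0.70). Over the 26 narrow-set tumors, r was 0.82 for Ncald and 0.67 for Tspan13 but 0.24 to 0.44 for the rest. For Etv5 they were Wwc1 (0.73), Cgnl1 (0.73), Chrm3 (0.70), Aldoc (0.70) and Galnt3 (0.69), with narrow-set r from 0.63 to 0.91. For Etv4 they were Nudt5 (0.72), Tonsl (0.72), Mcm8 (0.71), Mastl (0.71) and Mcm10 (0.71), with narrow-set r from 0.27 to 0.50. Tonsl, Mcm8, Mcm10 and Mastl act in DNA replication, its repair or mitosis. Between the members themselves r was lower, 0.50 for Etv1 and Etv5, 0.25 for Etv4 and Etv5 and 0.16 for Etv1 and Etv4 over the same arrays. The points share arrays, mice and normalization and include the tumors with low Erbb2, and these coefficients were used only to choose the genes.

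Tspan13, Otub2 and Slc39a9 lie on chromosome 12, as Etv1 does. Of the 50 genes most like Etv1 in the wide set, 9 lie on chromosome 12, where 3.22% of the 18605 genes compared are found. By the second Etv1 probe set there were 11 of 50. Over the 26 narrow-set tumors it was 1 of 50 by either probe set. For Etv4, 9 of 50 lay on its chromosome 11, which holds 7.88% of the genes, and 6 of 50 in the narrow set. Of the 5 genes nearest to Etv4, 4 lie on chromosome 2, whose share of the genes was not taken. For Etv5, 4 of 50 lay on chromosome 16, with 3.19% of the genes, and 1 of 50 in the narrow set. By the second Etv5 probe set these counts were 3 and 2 of 50. These shares are descriptions with no test.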

How the data were processed

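Affymetrix mouse gene 1.0 ST arrays of 222 samples were analyzed. The deposited values are log2 values that the authors normalized by RMA in Expression Console, for 35556 probe sets (21789 with 1 symbol in the platform annotation, updated by Entrez ID). Array medians were 7.06 to 7.40, and no pair of arrays was identical. The members and gene lists were chosen with earlier results of these data known. Groups were compared with limma 3.58.1 in R 4.3.3, with the mouse as a random block (consensus correlation 0.259 for tumors against glands, estimated on every 10th probe set). Tumors against glands were called where the FDR did not exceed 0.005 and the fold was 2 or more, 2 of the study's limits, and limma took the place of SAM. The study's further limit on a gene's standard deviation was not applied. Other comparisons were called at an adjusted p under 0.05 (Benjamini-Hochberg over all probe sets). Slopes on Erbb2 left out the probe sets of Erbb2. Tumor backgrounds were compared in the wide set and gland groups among the 8 glands. Correlations used 1 array per mouse and 100000 two-sided permutations. The scripts were tested on simulated data. Named genes were the 3 members, Erbb2, the 5 genes most correlated with each member in the wide set (predicted genes left out), and up to 4 called genes of each list with the largest changes, with others named from their counts after their values were seen.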

Additional observations from a re-analysis of the deposited data

Results flagged for a closer look

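Among the 6 narrow-set F1 tumors, F1_26T1 lay far below the others. For Etv1 (6.51, against 11.20 to 12.20 in the rest) its gap to the next tumor was 0.825 of the range of the group (0.8248), beyond Dixon's critical value of 0.625 for 6 samples. For Erbb2 (9.72, against 12.04 to 12.53) it was 0.8252. For Etv5 (6.91) the gap was 0.62 of the range and just inside the limit. Chance marks about 1 in 20 groups of values, and 4 genes were examined in this group.

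The rise of Etv1 from MMTV-ErbB2 glands to tumors differed between FVB and F1 mice by 1.764 on the log2 scale (adjusted p = 0.00956 from limma). It was 1.62 with wide-set tumors and glands only (adjusted p = 2.45e-05) and 1.56 without F1_26T1 (adjusted p = 0.00157). By the second Etv1 probe set it was 0.49 (adjusted p = 0.592 from limma) and passed in neither of these fits. There it was 0.33 with wide-set tumors and glands only (adjusted p = 0.539 from limma) and 0.29 without F1_26T1 (adjusted p = 0.699 from limma). The gland groups hold 3 and 2 arrays, and leaving out F1 MMTV-ErbB2 replicate 1 or 2 or FVB MMTV-ErbB2 replicate 3 left differences of 1.68, 1.85 and 1.76 with adjusted p = 0.147, 0.0541 and 0.698. In the last of these fits 4 of all 35556 probe sets passed.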

How the results depend on the processing

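Of 287 repeats of 45 results, 244 kept the direction and the side of the threshold. The increase of Etv1 and Etv5 in tumors was called in all 16 alternatives for each (3.86 to 4.40 and 3.27 to 4.25). Etv4 was 0.578 among narrow-set arrays and 0.597 there without F1_26T1, below the fold required in both, although the FDR was met. The probe sets called fell from 10026 to 4311 in the narrow set.

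The slope of Etv1 on Erbb2 in the narrow set was 0.551 without tumors with Erbb2 under 11 and 0.321 without F1_26T1, and that of Etv5 was 1.20 without tumors with Erbb2 under 11. Correlations with Erbb2 that no longer passed were, in the wide set, 0.110 for Etv1 and 0.196 for Etv5 without the 2 farthest tumors (168T1 and P16T1) and 0.119 and 0.174 without 168T1. In the narrow set they were 0.502 for Etv1 without the 2 farthest (092T1 and F1_26T1), and 0.0705 for Etv1 and 0.337 for Etv5 without the tumors with Erbb2 under 11. Probe sets with a called slope numbered 2972 in the narrow set and 0 without those tumors, and 1137 and 2 for the difference between sets.

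Between F1 and FVB tumors with all arrays, Etv5 was -0.533 and passed, and Etv4 turned to -0.163. That fit had no term for the array set, and the narrow set held F1 tumors but no FVB tumors. Etv5 between F1BX and FVB tumors passed with the filter on low signal (-0.193) and by the second probe set (-0.224). Between F1BX and F1 tumors, Etv1 was -0.0626 with 1 array per mouse, Etv4 was 0.115 in the narrow set and 0.0471 with all arrays, and Etv5 was -0.0599 by the second probe set, none called. Probe sets called there fell from 1297 to 0 in the narrow set, and those between F1BX and FVB tumors from 2398 to 1414 with 1 array per mouse.

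In glands with all arrays, Etv1 passed for transgene against wild type (1.77) and for FVB against F1 (-1.54), where 2493 probe sets were called in place of 0. By its second probe set neither passed (1.01 and -0.15). Leaving out each gland gave 1.63 to 1.88 for transgene against wild type, which passed without FVB MMTV-ErbB2 replicate 3, where 1060 probe sets were called in place of 0. Etv4 turned in direction with the replicate block (0.0924 and -0.0415), and leaving out each gland gave -0.264 to 0.0636 and -0.230 to 0.348 for these comparisons and -0.319 to 0.109 for Etv5 between FVB and F1, none called. The gland numbers share no stated litter or batch. The replicate block changed no call of the 3 genes. The difference by background in the rise of Etv1 was 1.49 to 2.04 without each MMTV-ErbB2 gland and 0.490 by the second probe set, and probe sets called fell from 2780 to 4 without FVB MMTV-ErbB2 replicate 3 and rose to 7079 without replicate 1. That of Etv4 was -0.0760 with quantile normalization, -0.214 with wide-set tumors and glands, -0.0348 without F1_26T1 and -0.185 to 0.392 without each gland. For tumors of 1 mouse, Etv4 turned to 0.00916 above the permuted mean over both sets. The causes were not tested. The second probe set beyond tumors against glands, F1_26T1, the wide-set fit, Erbb2 under 11 for correlations and the gland exclusions by background were chosen after seeing the data.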
